A study of Mus musculus with 14 samples.

Results

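Interferon-stimulated genes were followed through RNA-seq libraries of mouse hearts that differed in genotype (Clk3 knockout, KO, or wild type, WT) and in surgery (transverse aortic constriction, TAC, which narrows the aorta and loads the left ventricle with pressure, or a sham operation). The set was a written list of 44 genes, found by gene symbol among the 51912 genes of the count tables, and each had 1 entry. It was split into 34 genes known mainly as type I interferon targets and 10 known mainly as interferon-gamma targets (GTPases, antigen-processing genes and Irf1). Of the 44 genes, 43 had enough reads to be tested (33 and 10). Oas3, a sensor of double-stranded RNA, had 1 to 12 reads per library, or 0.0704 to 0.889 CPM (reads rescaled to equal library sizes), and was not tested. All hearts came from C57BL/6J mice. The groups were 4 KO TAC libraries (all at 10 weeks of age), 4 KO sham libraries (replicates 1 and 2 at 11 weeks, replicates 3 and 4 at 10 weeks), 2 WT TAC libraries (10 weeks) and 4 WT sham libraries (replicates 1 and 2 at 11 weeks, replicates 3 and 4 at 10 weeks). The labels give neither the time between surgery and collection, nor the sex, nor how the Clk3 allele was made. Separate animals per library are not stated either, and the spread behind each p-value may thus be technical.

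Type I interferons bind the receptor formed by IFNAR1 and IFNAR2. The kinases JAK1 and TYK2 then act on a complex that includes STAT2 and IRF9 and binds the interferon-stimulated response element (ISRE) near antiviral genes. Interferon-gamma binds IFNGR1 and IFNGR2 and acts through JAK1 and JAK2 on the gamma-activated site (GAS) near GTPase and antigen-processing genes, many of which respond to both classes of interferon. In the heart these genes are known from viral myocarditis, and also from injury without infection, where nucleic acids of damaged cells can be sensed by resident and recruited cells.

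Libraries held 11385818 to 20369637 gene-assigned reads, so that 3 reads, taken as the floor for detection, corresponded to 0.14 to 0.277 CPM. Clk3 itself was not absent from the KO libraries. It had 64.9, 54.9, 50.8 and 61.4 CPM in KO TAC hearts and 67.4, 64.8, 62.8 and 66.9 CPM in KO sham hearts, against 54.2 and 92.3 CPM in WT TAC hearts and 73.2, 92.5, 77.2 and 96.0 CPM in WT sham hearts. The sham groups did not overlap, but the library labelled WT TAC 1 lay within the KO range, and Clk3 did not pass the test in either surgery (log2 KO over WT of -0.37, adjusted p = 0.158 in sham hearts; -0.34, adjusted p = 0.35 after TAC). The labels do not say which part of the gene was removed, and the counts cover the whole gene. The share of reads in no annotated feature was 13.3% ± 0.87 in KO TAC libraries and 17.98% ± 0.83 in KO sham libraries (SD, n = 4 each), a difference that reached p = 0.0286, the smallest that an exact two-sided permutation test can give here. It was 12.8% ± 2.92 in WT TAC (SD, n = 2) and 15.8% ± 1.37 in WT sham libraries (SD, n = 4). In WT hearts the difference had an exact p of 0.133, and WT TAC replicate 2 (14.87%) lay within the WT sham range of 14.33% to 17.64%. Between sham groups, KO against WT had an exact p of 0.0857. The part of these differences in the results that follow was not tested.

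Promoter windows from RefSeq (build GRCm38.p6, 250 bases before to 50 bases after a start site) were found for 32 of the 44 genes, 12 of them among the 15 that passed the test in some comparison. They were searched on both strands for the ISRE, written GAAANNGAAA, and for the GAS, written TTCNNNGAA, which reads alike on both strands. The ISRE was found in 13 of 23 type I genes with a window (56.5%) and in 4 of 9 interferon-gamma genes (44.4%), against 3.99% of all 27025 genes with a window. The GAS was found in 5 of 23 type I genes (21.7%) and in 4 of 9 interferon-gamma genes (44.4%), against 9.55% of all genes. Counted over windows, since a gene can have several, 1131 of 32851 held the ISRE (3.44%) and 2726 held the GAS (8.3%). Of the 12 genes that passed the test somewhere, 6 held an ISRE and 4 a GAS. Of the 20 that did not, 11 held an ISRE and 5 a GAS. The stretches below carry matches of genes that passed, and of Igtp, which did not pass and carries both motifs. They are written 5′ to 3′ on the gene's strand, with matches in capitals. An ISRE on the opposite strand reads as its reverse complement (TTTC runs), and capitals that run on are matches that touch or overlap.
Isg15, chr4:156200867-156200904, minus strand: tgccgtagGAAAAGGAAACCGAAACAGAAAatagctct
Ifit1, chr19:34640777-34640821, plus strand: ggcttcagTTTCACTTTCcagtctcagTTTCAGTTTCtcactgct
Ifit3b, chr19:34607761-34607820, plus strand: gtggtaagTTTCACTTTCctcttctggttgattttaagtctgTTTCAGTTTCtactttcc
Bst2, chr8:71537579-71537616, minus strand: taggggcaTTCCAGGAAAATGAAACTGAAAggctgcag
Rsad2, chr12:26456555-26456580, minus strand: ggtccaacTTTCATTTTCagaaaaca
Ifi205, chr1:174031872-174031897, minus strand: aggccaggGAAATTGAAAgctatgaa
Irf1, chr11:53769916-53769940, plus strand: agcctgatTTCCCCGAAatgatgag
Psmb8, chr17:34198090-34198114, plus strand: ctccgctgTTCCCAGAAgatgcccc
Igtp, chr11:58199503-58199539, plus strand: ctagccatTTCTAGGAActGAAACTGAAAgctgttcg
Isg15 held 3 overlapping ISRE matches in its stretch. Ifit1 and Ifit3b each held 2, separated by other bases. The stretch of Ifit3 was identical to that of Ifit3b over all 60 bases. Ifi205 held another ISRE match after its start site, not shown. The Bst2 stretch held 1 GAS and 2 ISRE matches, and Irf1 and Psmb8 held a GAS. In Ifit2 only a GAS was found, and in Irf7, Dtx3l and Ifi47 neither motif was found in the window. A match is a description of letters, not a site shown to bind a factor, and its absence says only that these letters are not in this window.

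Levels of these genes spanned a wide range. Per kilobase of exon, and averaged over all 14 libraries, Ifi27l2a was highest at 37.0 CPM per kb, followed by Bst2 (30.7), Ifi35 (18.3), Iigp1 (15.2), Gbp2 (13.1) and Rsad2 (11.8). Ifi27l2a and Bst2 were the highest in each of the 4 groups, but the order after them differed by group: Iigp1 stood at 17.46 CPM per kb in KO sham hearts, beside 17.26 for Ifi35, and at 12.17 in WT TAC hearts, under Ifit3 at 15.15. Zbp1 (0.455), Mx1 (0.321) and the untested Oas3 (0.0528) were lowest on the same scale. Summed over the 34 type I genes, the level was 707.6 to 827.9 CPM in KO TAC, 568.3 to 712.5 CPM in KO sham, 698.7 and 881.4 CPM in WT TAC, and 597.5 to 684.5 CPM in WT sham libraries. The TAC libraries of WT lay above all WT sham libraries, and those of KO overlapped KO sham only through replicate 3 of KO sham. Summed over the 10 interferon-gamma genes the groups overlapped, with 243.4 to 352.1 CPM in KO TAC, 263.7 to 367.1 CPM in KO sham, 277.0 and 325.0 CPM in WT TAC, and 279.2 to 368.3 CPM in WT sham libraries.

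The libraries of a group did not sit at one level, and many genes of the set shared the order of the libraries. In the mean of log2(CPM + 0.5) over the 33 genes, KO TAC libraries stood at 3.93, 4.11, 4.09 and 4.26, KO sham libraries at 3.63, 3.64, 4.01 and 3.77, WT TAC libraries at 4.02 and 4.36, and WT sham libraries at 3.70, 3.94, 3.75 and 3.79. KO sham replicate 3 was the highest of its group for 28 of 33 type I genes (84.8%), against 24.2% of all genes tested, and it lay above KO TAC replicate 1. WT TAC replicate 2 was above the library labelled WT TAC 1 for 30 of 33 type I genes (90.9%), against 49.5% of all genes tested. KO TAC replicate 1 was the lowest of its group for 17 of 33 type I genes and for 10 of 10 interferon-gamma genes, against 27.3% of all genes tested. WT sham replicate 2 was the highest of its group for 18 of 33 type I genes and for 10 of 10 interferon-gamma genes. Among all genes tested, that share was 23.1%.

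**Figure D1:**
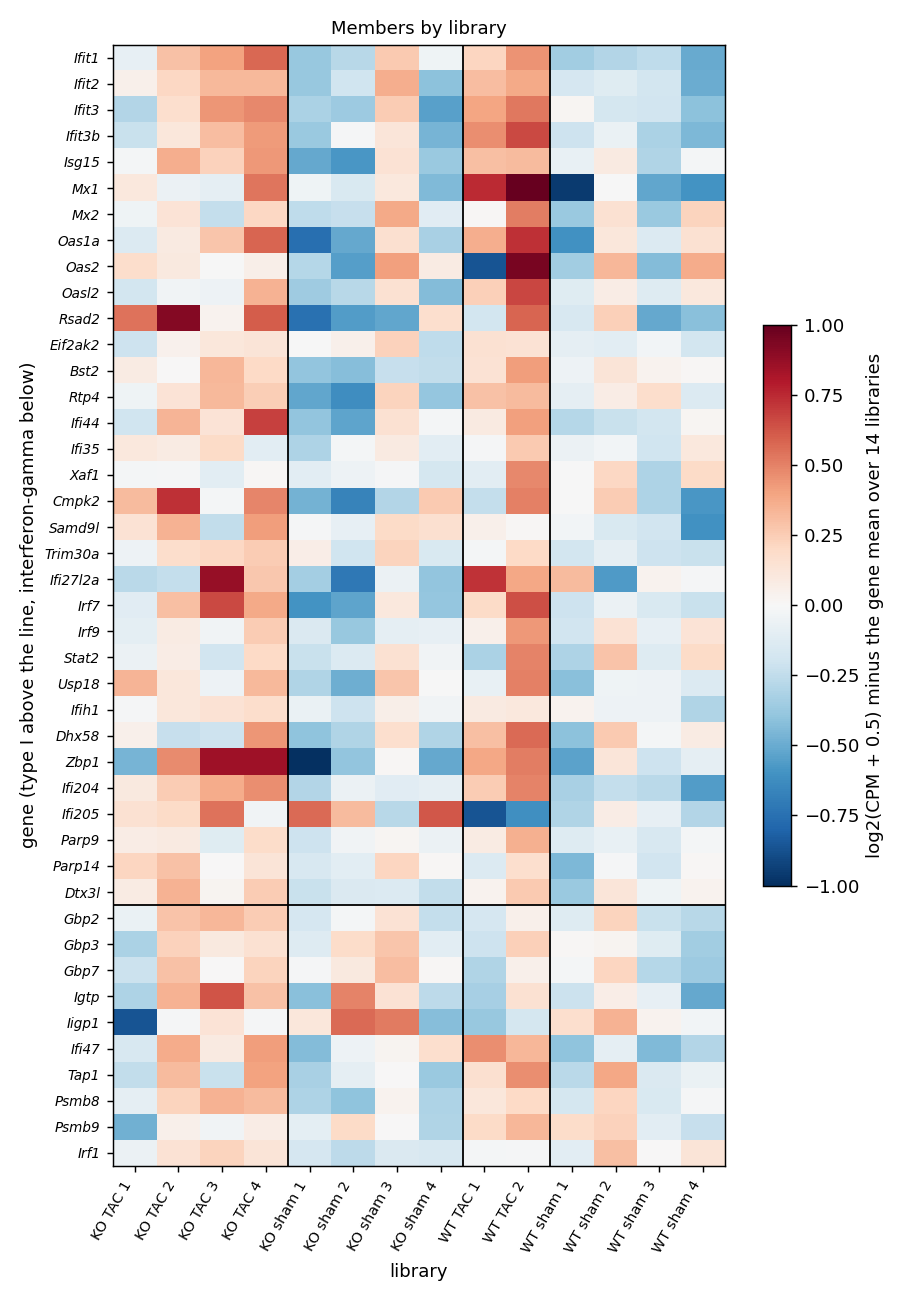
Each tested gene's log2(CPM + 0.5) minus its mean over the 14 libraries (color), with genes down the page and libraries across in the order KO TAC, KO sham, WT TAC and WT sham. KO sham replicate 3 stands apart from the other 3 KO sham libraries in most type I genes, 28 of 33, and WT TAC replicate 2 from the library labelled WT TAC 1 in 30 of 33.

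The first question was what pressure load did to these genes in each genotype. A minority of the genes passed the test in either genotype. In KO hearts 9 of 43 genes rose (20.93%): Bst2, Rsad2, Isg15, Irf7, Zbp1, Dtx3l, Ifi204, Psmb8 and Irf1. In WT hearts 6 of 43 rose (13.95%): Ifit1, Ifit2, Ifit3b, the dynamin-family gene Mx1, the DNA-sensor gene Ifi204 and the GTPase gene Ifi47. Among all 15651 genes tested, 6.73% rose and 6.26% fell in KO hearts, and 6.91% rose and 5.3% fell in WT hearts. No gene of the set fell in either genotype. A call here is an adjusted p under 0.05 in edgeR's quasi-likelihood test, with Benjamini-Hochberg adjustment over all 15651 genes, and every adjusted p comes from it unless DESeq2 is named. Changes are log2 fold changes ± SE.

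Of the 33 type I genes tested, 7 rose in KO hearts (21.2%, against 6.73% of all genes) and 5 in WT hearts (15.15%, against 6.91%). Their median log2 change was 0.35 in KO and 0.38 in WT hearts, with 32 of 33 above 0 in each, while the median of all genes was -0.01 in KO hearts and -0.00 in WT hearts. The type I gene below 0 was Ifi205 in both genotypes (log2 -0.117 in KO and -0.625 in WT hearts, not called in either). Of the 10 interferon-gamma genes, 2 rose in KO hearts and 1 in WT hearts, with medians of 0.27 in KO and 0.12 in WT hearts, and 6 lay above 0 in KO and 7 in WT hearts. At an unadjusted p under 0.05, 4529 of all 15651 genes passed in KO hearts and 4089 in WT hearts. At that threshold 16 of 33 type I genes and 3 of 10 interferon-gamma genes passed in KO hearts, and 14 and 1 in WT hearts. Macrophage markers moved with them, 7 of 14 rising in KO and 7 of 14 in WT hearts (medians 0.58 and 0.54), and their part was not tested. In bulk heart RNA, more cells of a type and more RNA per cell cannot be told apart. The 2 TAC comparisons share no library, but the list was drawn up with earlier results of these data known.

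**Figure D2:**
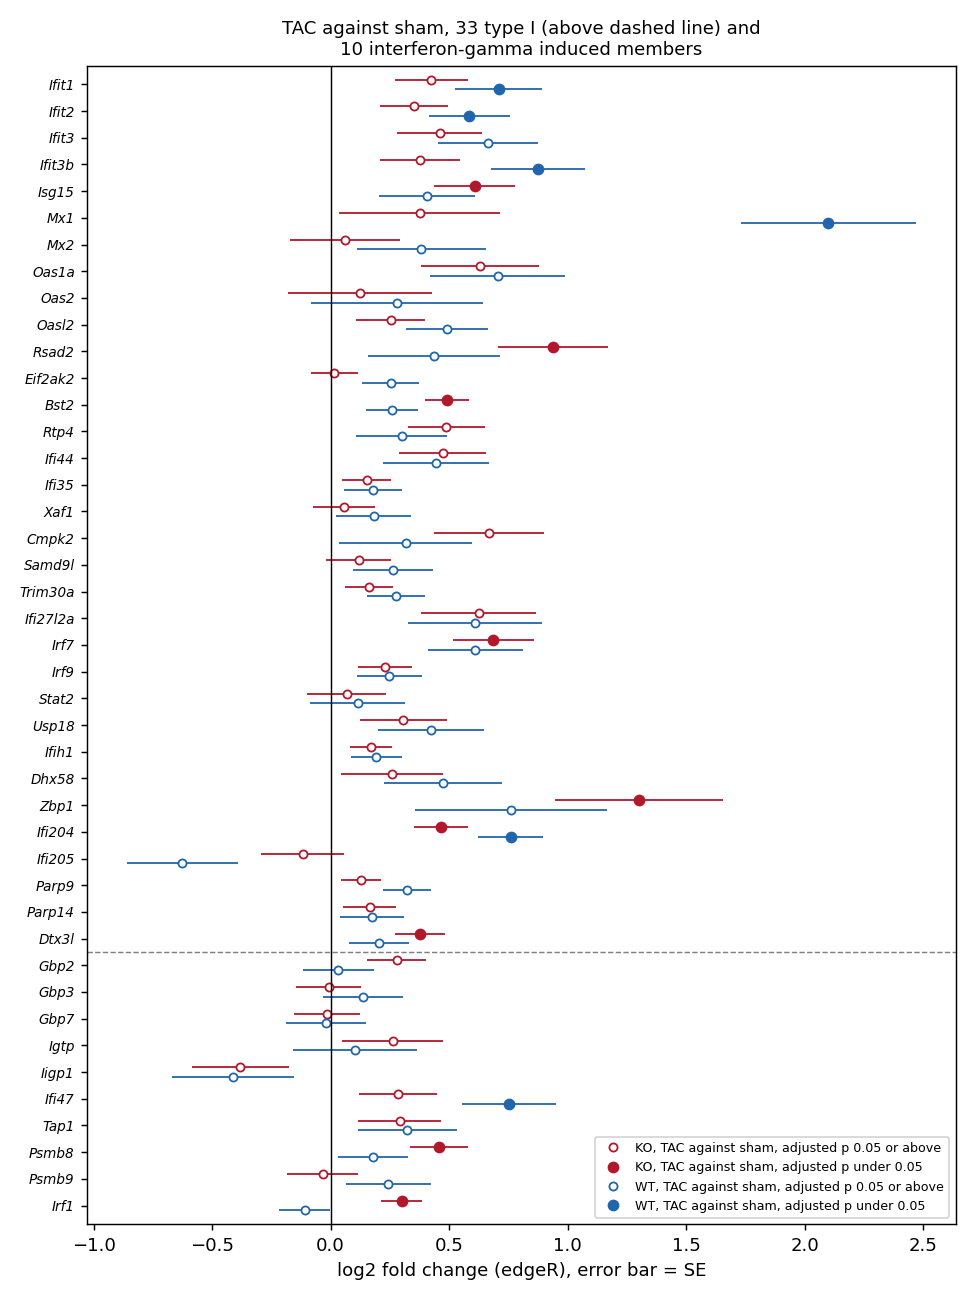
Log2 fold change of TAC over sham (x axis, bars are SE) for the 43 genes tested, with KO hearts above WT hearts for each gene, filled symbols for adjusted p under 0.05 and a dashed line between type I and interferon-gamma genes. Nearly all type I genes lie right of 0 in both genotypes (32 of 33 in each), with 7 filled in KO and 5 in WT hearts.

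These counts moved with the libraries used. All TAC libraries were from 10-week mice, whereas 2 libraries of each sham group were from 11-week mice. With age as a covariate, 8 of the 9 calls in KO hearts were lost and Bst2 was held, and in WT hearts Ifi47, Ifit1 and Ifit2 were lost and 3 were held. With 10-week libraries only, 0 type I genes were called in KO hearts and 3 in WT hearts, with medians of 0.20 in KO (29 of 33 above 0) and 0.37 in WT hearts. In that subset 15 of all genes passed in KO hearts, against 2033 with all libraries. Without KO sham replicate 3, 12 genes of the set rose in KO hearts and the type I median was 0.47. Ifit1, Ifit2, Ifit3, Oas1a and Rtp4 were gained, and Dtx3l and Irf1 were lost. Without KO sham replicate 1, 1 gene (Bst2) rose, without KO sham replicate 2, 2 rose, without KO TAC replicate 2, 4 rose, and without KO TAC replicate 4, 3 rose. In WT hearts, where 6 rose with all libraries, 3 rose without the library labelled WT TAC 1 (Ifi204, Mx1 and Ifit3b) and 3 without WT TAC replicate 2 (Ifi204, Mx1 and Ifi47), with type I medians of 0.60 and 0.26. Each of these fits has 1 WT TAC library, which is assumed to vary like the libraries of the other groups. Without WT TAC replicate 2 the median of the interferon-gamma genes was -0.09, on the other side of 0.

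The RNA and antiviral effectors came first in number, with 21 genes tested. All 21 were above 0 in both genotypes (medians 0.38 in KO, 0.41 in WT). Of these, 3 rose in KO hearts (14.3%, against 6.73% of all genes) and 4 in WT hearts (19.05%, against 6.91%). Ifit1, whose protein binds foreign RNA ends (ENSMUSG00000034459.8, chromosome 19, 34640871 to 34650009, plus strand; build GRCm38 here and below), had 15.0 and 17.7 CPM in WT TAC hearts, against 9.99, 10.4, 10.7 and 8.90 CPM in WT sham hearts. The WT groups did not overlap, and the rise was 1.64-fold (log2 0.71 ± 0.18, adjusted p = 0.0190). In KO hearts it had 12.1, 15.9, 17.1 and 19.4 CPM after TAC, against 9.77, 10.49, 15.5 and 12.5 CPM after sham surgery, with overlap through sham replicates 3 and 4 (log2 0.43 ± 0.15, adjusted p = 0.0765).

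Ifit2, of the same RNA-binding family (ENSMUSG00000045932.12, chromosome 19, 34550694 to 34576419, plus strand), had 51.2 and 53.9 CPM in WT TAC hearts, against 36.8, 38.0, 36.2 and 29.1 CPM in WT sham hearts (log2 0.59 ± 0.17, adjusted p = 0.0365). Its KO TAC libraries had 42.8, 47.7, 51.7 and 51.9 CPM, against 31.7, 36.0, 53.3 and 31.1 CPM in KO sham libraries, where replicate 3 exceeded every KO TAC library (log2 0.35 ± 0.14, adjusted p = 0.117). Ifit3b (ENSMUSG00000062488.9, chromosome 19, 34607970 to 34613401, plus strand) had 9.36 and 10.8 CPM in WT TAC hearts, against 5.70, 6.31, 5.25 and 4.75 CPM in WT sham hearts, without overlap (log2 0.87 ± 0.20, adjusted p = 0.00916). In KO hearts it had 5.63, 7.23, 8.37 and 9.11 CPM after TAC, against 5.02, 6.59, 7.26 and 4.68 CPM after sham surgery, with overlap (log2 0.38 ± 0.17, adjusted p = 0.153). Ifit3b and its neighbour Ifit3 are close copies, and how reads matching both were counted is not given, so their split is uncertain. Ifit3 missed the threshold in both genotypes (log2 0.46 ± 0.18, adjusted p = 0.0996 in KO; 0.66 ± 0.21, adjusted p = 0.0517 in WT).

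Mx1, a gene of the dynamin-like GTPase family, showed the largest log2 change of the 43 genes in WT hearts. The gene (ENSMUSG00000000386.14, chromosome 16, 97447035 to 97462907, minus strand) had 2.15 and 3.56 CPM in WT TAC hearts, against 0.312, 1.08, 0.602 and 0.539 CPM in WT sham hearts. This was a 4.29-fold difference without overlap (log2 2.10 ± 0.37, adjusted p = 0.00160). In KO hearts it had 1.2, 1.01, 0.978 and 1.78 CPM after TAC, against 1.03, 0.919, 1.198 and 0.658 CPM after sham surgery, with overlap (log2 0.38 ± 0.34, adjusted p = 0.489). These levels rest on few reads, 4 to 48 per library.

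Isg15, a ubiquitin-like protein that is attached to other proteins and also secreted (ENSMUSG00000035692.6, chromosome 4, 156199424 to 156200818, minus strand), rose in KO hearts. It had 6.10, 8.11, 7.34 and 8.52 CPM in KO TAC hearts, against 4.20, 3.98, 6.90 and 4.68 CPM in KO sham hearts, with overlap through sham replicate 3 (log2 0.61 ± 0.17, adjusted p = 0.0302). In WT hearts it had 7.75 and 7.85 CPM after TAC, against 5.86, 6.64, 4.93 and 6.09 CPM after sham surgery, without overlap. The change was not called (log2 0.41 ± 0.20, adjusted p = 0.217).

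Rsad2, the gene of viperin, which makes a chain-terminating nucleotide (ENSMUSG00000020641.16, chromosome 12, 26442746 to 26456452, minus strand), had 70.1, 91.3, 49.2 and 73.4 CPM in KO TAC hearts, against 28.5, 32.5, 33.3 and 54.0 CPM in KO sham hearts. The rise was 1.91-fold, with sham replicate 4 inside the TAC range (log2 0.94 ± 0.23, adjusted p = 0.0181). Its neighbour in function Cmpk2, which supplies the nucleotide, was not called (log2 0.67 ± 0.23, adjusted p = 0.0695). In WT hearts Rsad2 had 42.2 and 72.1 CPM after TAC, against 42.9, 56.6, 33.6 and 35.9 CPM after sham surgery, with overlap (log2 0.43 ± 0.28, adjusted p = 0.349).

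Bst2, or tetherin, which holds budding virus at the cell surface (ENSMUSG00000046718.8, chromosome 8, 71534255 to 71537456, minus strand), had the smallest adjusted p of the set in KO hearts. It had 29.0, 27.4, 34.6 and 31.4 CPM in KO TAC hearts, against 20.7, 20.3, 23.3 and 22.9 CPM in KO sham hearts, without overlap (log2 0.49 ± 0.09, adjusted p = 0.00422). In WT hearts, 30.3 and 36.8 CPM after TAC stood against 26.4, 29.96, 28.1 and 27.6 CPM after sham surgery, also without overlap but short of the threshold (log2 0.26 ± 0.11, adjusted p = 0.139). The sham level was the lower one in KO hearts, which is taken up with the genotype comparison.

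Oasl2, a relative of the oligoadenylate synthetases, and Samd9l, an antiviral and growth-restraining factor, passed in no comparison. Oasl2 had 17.7, 19.7, 19.4 and 25.8 CPM in KO TAC, 15.6, 16.5, 22.4 and 14.8 CPM in KO sham, 23.9 and 32.3 CPM in WT TAC and 18.5, 21.2, 18.4 and 21.7 CPM in WT sham libraries. Samd9l had 50.7, 58.5, 38.5 and 61.6 CPM in KO TAC, 45.5, 43.2, 52.5 and 51.4 CPM in KO sham, 47.4 and 46.2 CPM in WT TAC and 45.1, 41.3, 40.0 and 29.9 CPM in WT sham libraries. Both WT TAC libraries lay above all WT sham libraries for each gene. The other 12 effectors tested ranged from a log2 change of 0.02 (Eif2ak2, the kinase PKR) to 0.67 (Cmpk2) in KO hearts and from 0.18 (Ifi35) to 0.71 (Oas1a, an activator of RNase L) in WT hearts. None of them passed in either genotype.

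**Figure D3:**
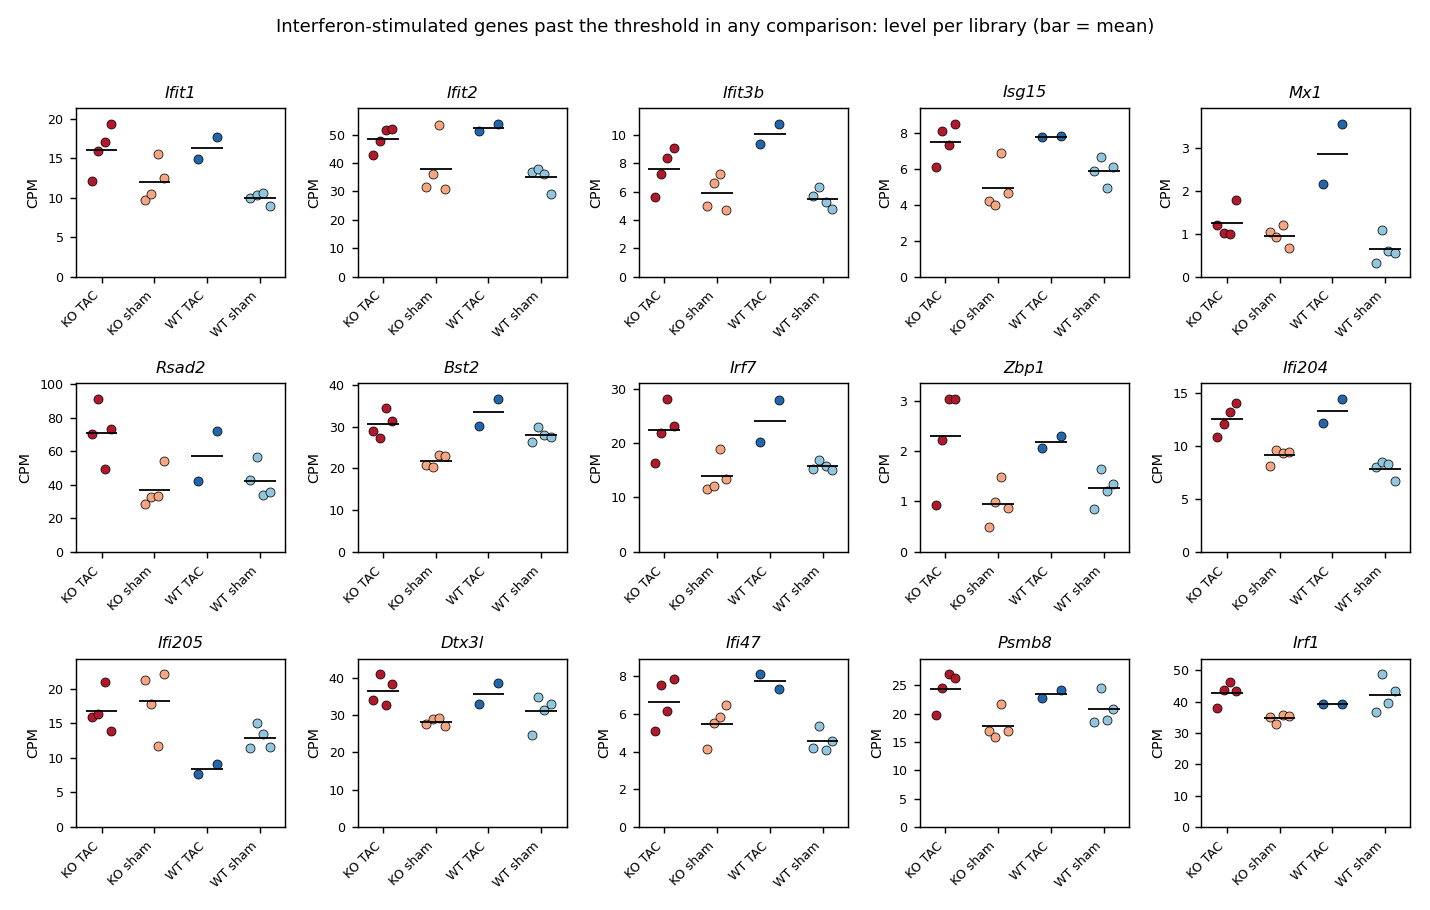
CPM per library (y axis, linear) for the 15 genes that passed the threshold in at least 1 comparison, with groups in the order KO TAC, KO sham, WT TAC and WT sham, points for libraries and bars for group means. Bst2, Ifi204, Dtx3l and Irf1 show KO TAC libraries above every KO sham library. Mx1 stands out in the 2 WT TAC libraries at 2.15 and 3.56 CPM.

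Of the 4 transcription factors and feedback genes of the type I response, 1 rose in KO hearts (25%, against 6.73% of all genes) and 0 in WT hearts (against 6.91%). Irf7, which amplifies type I interferon transcription (ENSMUSG00000025498.15, chromosome 7, 141262706 to 141266481, minus strand), had 16.3, 21.9, 28.2 and 23.2 CPM in KO TAC hearts, against 11.5, 12.1, 19.0 and 13.4 CPM in KO sham hearts, with overlap through sham replicate 3 (log2 0.69 ± 0.17, adjusted p = 0.0180). In WT hearts it had 20.3 and 27.9 CPM after TAC, against 15.2, 16.9, 15.9 and 15.0 CPM after sham surgery, without overlap but short of the threshold (log2 0.61 ± 0.20, adjusted p = 0.0604). Of the ISRE-binding complex itself, Irf9 had log2 changes of 0.23 in KO and 0.25 in WT hearts, and Stat2 of 0.07 in KO and 0.11 in WT hearts. Usp18, which removes ISG15 and restrains the receptor, had 0.31 in KO and 0.42 in WT hearts. None of these 3 was called.

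Among the 8 sensors and ADP-ribosylation genes, 3 rose in KO hearts (37.5%, against 6.73% of all genes) and 1 in WT hearts (12.5%, against 6.91%). Ifi204, a PYHIN-family DNA sensor (ENSMUSG00000073489.6, chromosome 1, 173747293 to 173766943, minus strand), was the one gene of the set called in both genotypes. It had 10.8, 12.1, 13.2 and 14.1 CPM in KO TAC hearts, against 8.12, 9.65, 9.30 and 9.43 CPM in KO sham hearts (log2 0.46 ± 0.11, adjusted p = 0.0171). In WT hearts it had 12.1 and 14.5 CPM after TAC, against 7.96, 8.46, 8.26 and 6.69 CPM after sham surgery (log2 0.76 ± 0.14, adjusted p = 0.00188). The groups did not overlap in either genotype. Ifi204 lies in a cluster of close PYHIN relatives on chromosome 1, so its counts can share reads with them.

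Zbp1, a sensor of Z-form nucleic acid that can trigger necroptosis (ENSMUSG00000027514.14, chromosome 2, 173206612 to 173218923, minus strand), had 0.923, 2.23, 3.04 and 3.04 CPM in KO TAC hearts, against 0.482, 0.996, 1.48 and 0.877 CPM in KO sham hearts. The 2.46-fold rise (log2 1.30 ± 0.35, adjusted p = 0.0273) rests on 7 to 56 reads per library and on overlapping groups. WT hearts had 2.07 and 2.30 CPM of it after TAC, against 0.859, 1.64, 1.204 and 1.35 CPM after sham surgery, without overlap (log2 0.76 ± 0.41, adjusted p = 0.252). Dtx3l, a ubiquitin ligase that works with PARP9 (ENSMUSG00000049502.16, chromosome 16, 35926511 to 35939151, minus strand), had 34.2, 41.1, 32.8 and 38.4 CPM in KO TAC hearts, against 27.5, 29.0, 29.2 and 27.0 CPM in KO sham hearts, without overlap (log2 0.38 ± 0.10, adjusted p = 0.0291). Its WT libraries had 33 and 38.7 CPM after TAC, against 24.8, 35.0, 31.3 and 33.1 CPM after sham surgery, with overlap (log2 0.20 ± 0.13, adjusted p = 0.334). Its partner Parp9 had a log2 change of 0.13 in KO hearts and was just short of the threshold in WT hearts (log2 0.32 ± 0.10, adjusted p = 0.0507). The RNA sensors Ifih1 (MDA5) and Dhx58 (LGP2) were not called in either genotype, with log2 changes of 0.17 and 0.26 in KO and 0.19 and 0.47 in WT hearts.

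Among the interferon-gamma genes, 0 of 6 GTPases rose in KO hearts (against 6.73% of all genes) and 1 of 6 in WT hearts (16.7%, against 6.91%). Ifi47, an immunity-related GTPase of the kind that acts on pathogen vacuoles (ENSMUSG00000078920.3, chromosome 11, 49076587 to 49096974, plus strand), had 8.13 and 7.34 CPM in WT TAC hearts, against 4.22, 5.38, 4.10 and 4.58 CPM in WT sham hearts, without overlap (log2 0.75 ± 0.20, adjusted p = 0.0207). In KO hearts it had 5.08, 7.57, 6.14 and 7.86 CPM after TAC, against 4.13, 5.51, 5.85 and 6.50 CPM after sham surgery, with overlap (log2 0.28 ± 0.17, adjusted p = 0.270). Its exons overlap another gene on the same strand, and reads counted as ambiguous there are left out.

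The related GTPase Iigp1 lay on the other side of 0, though it passed in neither genotype. It had 46.9, 84.9, 94.3 and 85.1 CPM in KO TAC hearts, against 92.9, 127, 123 and 63.8 CPM in KO sham hearts (log2 -0.38 ± 0.21, adjusted p = 0.235). WT hearts had 65.9 and 75.8 CPM after TAC, against 96.5, 109, 87.6 and 84.0 CPM after sham surgery (log2 -0.41 ± 0.26, adjusted p = 0.335). Both WT TAC libraries were below every WT sham library, while the KO groups overlapped. Igtp (IRGM3) had 16.1, 25.6, 31.2 and 24.6 CPM in KO TAC, 14.9, 28.5, 22.2 and 16.6 CPM in KO sham, 15.8 and 22.3 CPM in WT TAC and 17.2, 20.9, 18.9 and 13.9 CPM in WT sham libraries. The guanylate-binding protein gene Gbp2 had 31.2, 39.9, 41.3 and 39.0 CPM in KO TAC, 29.1, 32.2, 36.2 and 27.6 CPM in KO sham, 29.1 and 33.9 CPM in WT TAC and 29.9, 38.2, 28.0 and 26.9 CPM in WT sham libraries. For both genes TAC and sham libraries overlapped in each genotype. Gbp3 and Gbp7 had log2 changes between -0.02 and 0.14, and neither was called.

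Of the 3 antigen-processing genes, Psmb8 rose in KO hearts (33.3%, against 6.73% of all genes). Psmb8, an immunoproteasome subunit (ENSMUSG00000024338.14, chromosome 17, 34197721 to 34201454, plus strand), had 19.8, 24.6, 27.0 and 26.3 CPM in KO TAC hearts, against 16.9, 15.9, 21.6 and 16.9 CPM in KO sham hearts, with overlap through sham replicate 3 (log2 0.46 ± 0.12, adjusted p = 0.0252). Its WT libraries had 22.8 and 24.2 CPM after TAC, against 18.6, 24.5, 18.9 and 20.9 CPM after sham surgery, with overlap (log2 0.18 ± 0.15, adjusted p = 0.493). The partner subunit Psmb9 had 7.85, 11.6, 10.9 and 11.8 CPM in KO TAC, 10.4, 12.9, 11.2 and 8.99 CPM in KO sham, 12.8 and 14.2 CPM in WT TAC and 12.7, 13.2, 10.3 and 9.44 CPM in WT sham libraries, and was not called (log2 -0.03 in KO, 0.24 in WT). Tap1, which moves peptides into the endoplasmic reticulum, had 15.4, 22.98, 15.7 and 24.5 CPM in KO TAC, 14.6, 17.2, 18.4 and 14.1 CPM in KO sham, 20.6 and 25.6 CPM in WT TAC and 15.2, 24.2, 16.6 and 17.5 CPM in WT sham libraries. Tap1 was not called either, with log2 changes of 0.29 in KO and 0.32 in WT hearts.

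Irf1, a transcription factor induced early in the interferon-gamma response (ENSMUSG00000018899.16, chromosome 11, 53770014 to 53778374, plus strand), rose in KO hearts. It had 37.9, 43.7, 46.1 and 43.3 CPM in KO TAC hearts, against 35.2, 32.9, 35.7 and 35.4 CPM in KO sham hearts, without overlap (log2 0.30 ± 0.09, adjusted p = 0.0362). In WT hearts it had 39.1 and 39.1 CPM after TAC, against 36.7, 48.8, 39.5 and 43.2 CPM after sham surgery (log2 -0.11 ± 0.11, adjusted p = 0.573), so the WT estimate lay below 0. The difference between the TAC effects of the genotypes was 0.41 ± 0.14, adjusted p = 0.603, which is not a call.

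The next comparison was between libraries labelled KO and WT without load. In sham hearts no gene of the set passed, against 0.575% of all genes higher and 0.313% lower in KO. At an unadjusted p under 0.05, 4 of 43 genes passed, against 2817 of all 15651 genes tested. The type I median was -0.04 with 14 of 33 genes above 0, and the interferon-gamma median 0.06 with 6 of 10 above 0. DESeq2 called 1, Bst2, lower in KO sham hearts (adjusted p = 0.0165). In edgeR Bst2 stood at log2 -0.36 ± 0.09, adjusted p = 0.0635, and its KO sham libraries (20.7, 20.3, 23.3 and 22.9 CPM) all lay below the WT sham libraries (26.4, 29.96, 28.1 and 27.6 CPM). Irf1 also did not overlap between sham groups, with 35.2, 32.9, 35.7 and 35.4 CPM in KO and 36.7, 48.8, 39.5 and 43.2 CPM in WT libraries (log2 -0.28 ± 0.09, adjusted p = 0.122). Ifi205 (log2 0.50, adjusted p = 0.152) and Samd9l (log2 0.30, adjusted p = 0.263) lay on the other side, higher in KO and also not called. Together with Bst2 and Irf1 they make up the 4 genes with an unadjusted p under 0.05. Markers of several cell types lay on the side of Bst2 and Irf1, lower in KO sham hearts. Below 0 were 12 of 14 macrophage markers (median -0.27), 10 of 10 endothelial markers (median -0.22) and 5 of 5 lymphocyte markers (median -0.27). None was called by edgeR, and 6, 4 and 1 passed an unadjusted p under 0.05. Of 8 cardiomyocyte markers 5 lay above 0 (median 0.09), with 0 called and 4 at an unadjusted p under 0.05. The part of all these markers in the differences was not tested.

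After TAC, 1 of 43 genes differed by genotype, against 0.377% of all genes higher and 1.11% lower in KO. Ifi205, a PYHIN-family relative of Ifi204 (ENSMUSG00000054203.7, chromosome 1, 174011998 to 174031810, minus strand), had 15.9, 16.4, 20.97 and 13.9 CPM in KO TAC hearts, against 7.60 and 9.11 CPM in WT TAC hearts, a 2.01-fold difference without overlap (log2 1.01 ± 0.24, adjusted p = 0.0448). In sham hearts it had 21.3, 17.8, 11.7 and 22.1 CPM in KO, against 11.5, 15.0, 13.4 and 11.5 CPM in WT libraries, with overlap (log2 0.50 ± 0.18, adjusted p = 0.152). The call after TAC was held in 8 of 23 alternative settings and lost in 15, including an age covariate and each setting with a single WT TAC library, and the library labelled WT TAC 1 carries Clk3 at the KO level. Mx1 lay on the other side, with 1.2, 1.01, 0.978 and 1.78 CPM in KO TAC hearts, against 2.15 and 3.56 CPM in WT TAC hearts, without overlap, but was not called (log2 -1.20 ± 0.36, adjusted p = 0.115). The type I median between genotypes after TAC was -0.11 with 10 of 33 genes above 0, and the interferon-gamma median 0.10 with 7 of 10 above 0. At an unadjusted p under 0.05, 3 of 43 genes of the set differed, against 2315 of all 15651 genes tested. In the same comparison 12 of 14 macrophage markers lay below 0 (median -0.25, 0 called and 3 at an unadjusted p under 0.05), and 8 of 8 fibroblast markers lay below 0 (median -0.41), of which 3 were called lower, and their part was not tested.

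Whether the effect of TAC itself differed between the genotypes was tested as an interaction. No gene of the set passed, while 0% of all genes tested passed with a positive and 0.0192% with a negative difference. At an unadjusted p under 0.05, 1022 of all 15651 genes passed. Of the 43 genes, 2 did so, Mx1 (log2 -1.72 ± 0.51, adjusted p = 0.456) and Irf1. DESeq2 also called 0 genes of the set. The different lists of genes that rose in KO and in WT hearts are therefore not shown to differ by genotype. The interaction estimates were -0.50 for Ifit3b (adjusted p = 0.7995), -0.47 for Ifi47 (adjusted p = 0.814) and 0.28 for Psmb8 (adjusted p = 0.845).

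Upstream of these genes, the ligands were close to undetected. Of 9 interferon genes listed, Ifna2 had 1 read in 1 library and Ifng had 5 reads over 5 libraries, at most 1 per library, and the others had none, which at this depth allows up to 0.14 to 0.277 CPM per library. Of 24 ligand, receptor and signalling genes 15 were tested, and 1 rose in KO hearts (6.67%, against 6.73% of all genes) and 2 in WT hearts (13.3%, against 6.91%). Ifngr1, the ligand-binding chain of the interferon-gamma receptor, rose in both genotypes, with 87.5 to 96.7 CPM in KO TAC hearts, against 64.1 to 74.9 CPM in KO sham hearts (log2 0.39 ± 0.07, adjusted p = 0.00468), and 101 and 102 CPM in WT TAC hearts, against 72.6 to 90.5 CPM in WT sham hearts (log2 0.31 ± 0.09, adjusted p = 0.0314). Ptpn6, the phosphatase SHP-1 of blood cells, rose in WT hearts (log2 0.69 ± 0.18, adjusted p = 0.0196). The type I receptor chains and their kinases were not called: Ifnar1 had a log2 change of 0.11 in KO and 0.08 in WT hearts, and Tyk2 of -0.08 in KO and 0.17 in WT hearts.

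A further list held nucleic acid sensors with their adaptors, kinases and transcription factors, and genes of nucleic acid control. Of its 19 genes 18 were tested, and 2 rose in KO hearts (11.1%, against 6.73% of all genes) and 1 in WT hearts (5.56%, against 6.91%). None of the genes called was itself a sensor. Irf8, a transcription factor of myeloid cells, rose in both (log2 0.72 ± 0.15, adjusted p = 0.00659 in KO; 0.70 ± 0.17, adjusted p = 0.0135 in WT), and the Toll-like receptor adaptor Myd88 in KO hearts (log2 0.35 ± 0.10, adjusted p = 0.0340). The STING gene Tmem173 had 11.6 and 14.3 CPM in WT TAC hearts, against 6.87 to 11.0 CPM in WT sham hearts, just short of the threshold (log2 0.53 ± 0.17, adjusted p = 0.0531), and its DNA-sensing partner Cgas had 0.04 in KO and 0.01 in WT hearts.

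A second list of type I targets outside the 44, with 34 of 35 genes tested, had median log2 changes of 0.16 in KO and 0.20 in WT hearts, with 4 rising in KO hearts (11.8%, against 6.73% of all genes) and 2 in WT hearts (5.88%, against 6.91%). In KO hearts these were Slfn2, a regulator of immune-cell quiescence (log2 0.87 ± 0.15, adjusted p = 0.00248), Ifitm3, which blocks viral entry (0.52 ± 0.08, adjusted p = 0.00140), Lgals9 (0.52 ± 0.12, adjusted p = 0.0144) and Tor3a (0.33 ± 0.09, adjusted p = 0.0293). In WT hearts they were Slfn2 (0.54 ± 0.17, adjusted p = 0.0493) and Phf11b (1.51 ± 0.27, adjusted p = 0.00197). Ifitm3 was also lower in KO than in WT sham hearts, at 57.4 to 66.6 CPM in KO sham, against 80.6 to 84.3 CPM in WT sham libraries, without overlap (log2 -0.44 ± 0.08, adjusted p = 0.0203). In sham hearts Bst2, Irf1 and the medians of the endothelial and macrophage markers lay on the same side, without a call. Ifi205, Samd9l and the median of the cardiomyocyte markers lay on the other side, also without a call.

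A second list of interferon-gamma targets, with 29 of 31 genes tested, had 10 genes that rose in KO hearts (34.5%, against 6.73% of all genes), and 6 that rose (20.7%, against 6.91%) and 1 that fell in WT hearts. Among its 18 antigen-presentation genes, 8 rose in KO hearts, and 5 rose and 1 fell in WT hearts. Among its 9 GTPases tested, 1 rose in KO and 0 in WT hearts. Psmb10, the third immunoproteasome subunit, rose in both (log2 0.50 ± 0.08, adjusted p = 0.00257 in KO; 0.69 ± 0.10, adjusted p = 3.78e-04 in WT). So did the class I light chain B2m (0.37 ± 0.08, adjusted p = 0.0131 in KO; 0.43 ± 0.10, adjusted p = 0.0117 in WT) and the class II gene H2-Ab1 (0.85 ± 0.16, adjusted p = 0.00502 in KO; 0.63 ± 0.19, adjusted p = 0.0450 in WT). The class II invariant chain Cd74 rose in KO hearts (0.77 ± 0.16, adjusted p = 0.00846). The chemokine gene Cxcl10 rose in both from low levels, with 0.739 to 1.39 CPM in KO TAC hearts, against 0.292 to 0.613 CPM in KO sham hearts (1.29 ± 0.32, adjusted p = 0.0184), and 1.19 and 1.31 CPM in WT TAC hearts, against 0.274 to 0.625 CPM in WT sham hearts (1.44 ± 0.36, adjusted p = 0.0163). Psme1, a proteasome activator subunit, fell in WT hearts (-0.44 ± 0.09, adjusted p = 0.00547). Class I and II genes share sequence within their families, so their separate counts are uncertain.

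**Figure D4:**
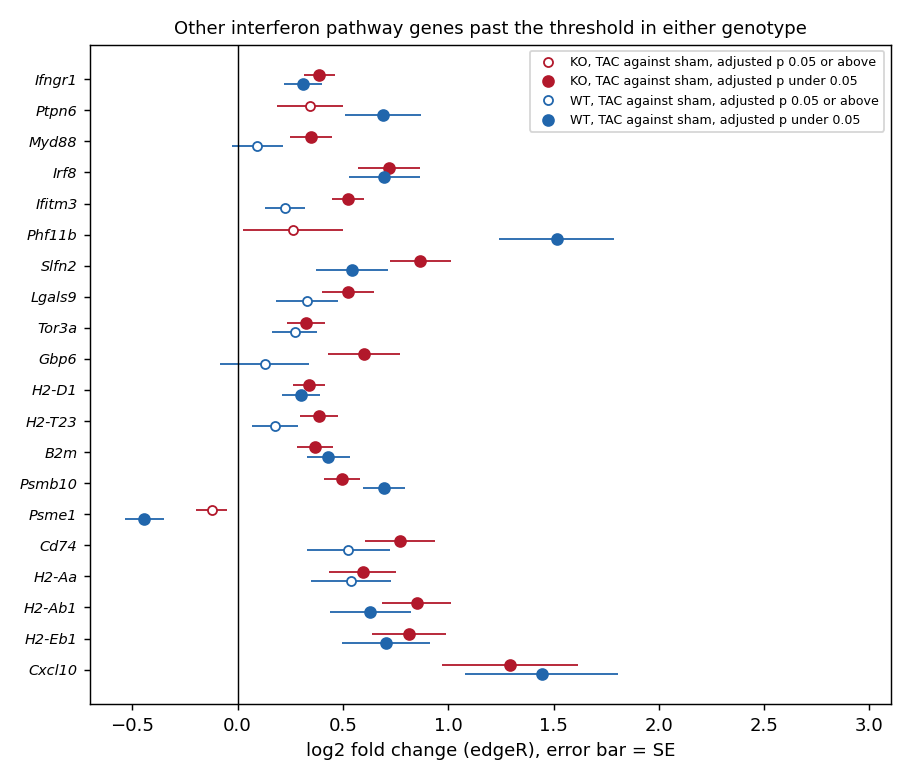
Log2 fold change of TAC over sham (x axis, bars are SE) for 20 further genes of the interferon pathways, with KO hearts above WT hearts and filled symbols for adjusted p under 0.05. Among others, Ifngr1, Irf8, Slfn2, Psmb10, B2m, H2-Ab1 and Cxcl10 are filled in both genotypes, and Psme1 lies left of 0 in WT hearts at -0.44.

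Markers of other cell types moved alongside, and their part in the results was not tested. Of 14 macrophage markers tested, 7 rose in KO (50%, against 6.73% of all genes) and 7 in WT hearts (50%, against 6.91%). Their median log2 changes were 0.58 in KO and 0.54 in WT hearts. Fcgr1 (log2 1.14 ± 0.20, adjusted p = 0.00295 in KO; 1.29 ± 0.22, adjusted p = 0.00130 in WT) and Cx3cr1 (1.09 ± 0.24, adjusted p = 0.0107 in KO; 1.28 ± 0.26, adjusted p = 0.00471 in WT) rose in both genotypes. The summed macrophage level was 439.1 to 550.2 CPM in KO TAC, 303.9 to 419.4 CPM in KO sham, 529.9 and 650.5 CPM in WT TAC, and 412.7 to 434.2 CPM in WT sham libraries, so TAC and sham did not overlap in either genotype. By mean log2(CPM + 0.5) the macrophage list stood at 3.65, 3.46, 3.82 and 3.74 in KO sham libraries, highest in replicate 3 as for the type I genes. In WT TAC hearts it stood at 4.56 and 4.36, higher in the library labelled WT TAC 1, the reverse of the type I genes.

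Of 13 lymphocyte markers 5 had enough reads and 0 were called. At an unadjusted p under 0.05, 2 of these markers passed in KO and 1 in WT hearts (4529 and 4089 of all 15651 genes). Their sum was 6.28 to 8.86 CPM in KO TAC, 3.72 to 5.51 CPM in KO sham, 6.45 and 7.56 CPM in WT TAC, and 4.92 to 6.45 CPM in WT sham libraries. Of 3 neutrophil markers tested, 2 rose in KO hearts, S100a8 and S100a9, at no more than 1.79 CPM. The plasmacytoid dendritic cell list shares Bst2 and Irf8 with the genes above, and its defining gene Siglech stayed under 1 CPM, with 0.148 and 0.230 CPM in WT TAC hearts, against 0.431 to 0.821 CPM in WT sham hearts, at or near the floor of 3 reads in both WT TAC libraries (log2 -1.78 ± 0.48, adjusted p = 0.0245). Of 10 endothelial markers 3 rose in KO hearts (Pecam1, Ly6c1 and Cldn5) and 0 in WT hearts. Of 8 fibroblast markers, 3 rose in KO (37.5%) and 4 in WT hearts (50%). Of 8 cardiomyocyte markers, 1 rose and 2 fell in KO hearts, and 0 rose and 1 fell in WT hearts. Beside these counts, 6.73% of all genes tested rose and 6.26% fell in KO hearts, and 6.91% rose and 5.3% fell in WT hearts.

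**Figure D5:**
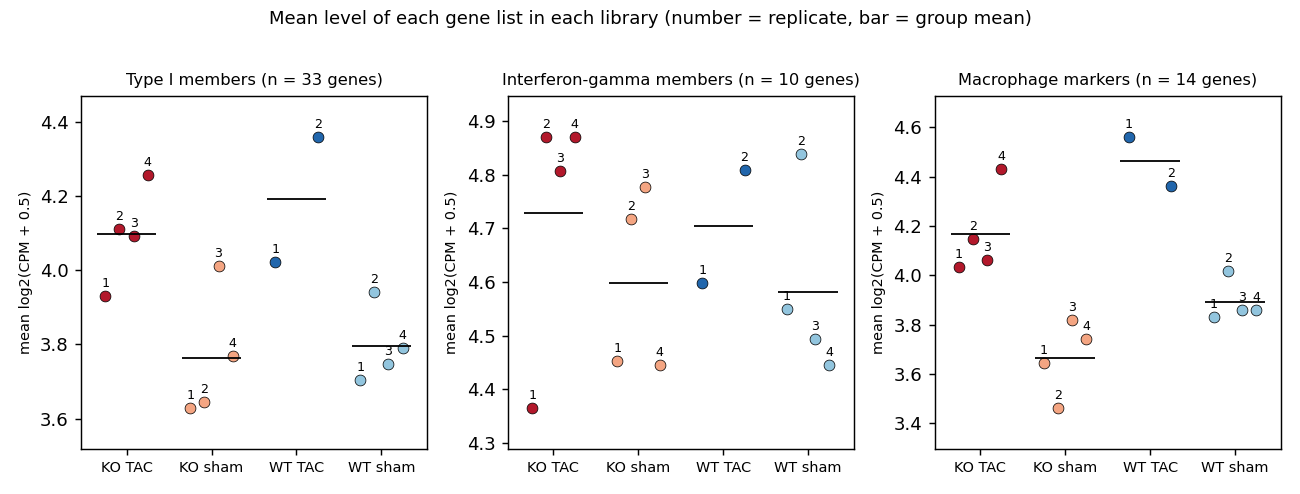
Mean log2(CPM + 0.5) per library (y axis) of the 33 type I genes, the 10 interferon-gamma genes and 14 macrophage markers, by group in the order KO TAC, KO sham, WT TAC and WT sham, with numbers for replicates and bars for group means. KO sham replicate 3 reaches 4.01 for the type I genes, within the KO TAC range of 3.93 to 4.26, and KO TAC replicate 1 lies apart from its group for the interferon-gamma genes.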

How the data were processed

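The 14 libraries were poly(A)-enriched, strand-specific mouse heart RNA-seq, per the labels' protocols. The deposited values are raw counts of reads per gene that the authors made without normalization. Tools named in the submitters' processing notes are bcl2fastq 2.17.1.14, STAR 2.4.2a, Picard 2.10.3 and mm10/GRCm38. The column layout is that of QoRTs, whose version, annotation, strand setting and treatment of multi-mapping reads the sources used here do not give. Reads in no feature (the shares stand with the results) and ambiguous reads stayed out of library sizes. The strand check summed each gene's ambiguous reads over the 14 libraries. The 12 genes of the set whose exons overlap only opposite-strand genes had 0 to 1. The 5 with same-strand overlaps (Gbp7, Ifi47, Igtp, Irf9 and Rtp4) had 132 to 2186.

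Symbols and positions came from GENCODE M21 (51719 of 51912 identifiers found). Genes were filtered with filterByExpr (minimum count 10; 15651 tested, 36261 not) and tested with edgeR 4.0.16 in R 4.3.3: TMM scaling, quasi-likelihood test, 1 coefficient per group over 14 libraries, 5 comparisons, Benjamini-Hochberg adjustment over all genes tested, threshold 0.05. Gene SEs were taken as the fold change over the square root of F. Levels are TMM-scaled CPM, and library means use log2(CPM + 0.5). Shares of reads were tested by exact two-sided permutation. The tests were also run on simulated counts drawn independently for each library. Such counts cannot show how the tests behave when many genes shift together in 1 library. Within each group all pairs of libraries differed beyond sampling noise (lowest chi-square per degree of freedom 3.43). DESeq2 1.42.0 was an alternative among 23, 14 of which leave out 1 library. Promoter windows were RefSeq's.

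The genes of the set, the other lists and the tests were chosen with earlier results of these data known. Values in every library are given for each gene past the threshold in any comparison, and for the 3 of smallest unadjusted p per class and comparison, 22 in all. In the other pathway lists, genes named with a test are those past the threshold, taken by smallest p. Ifnar1, Tyk2, Tmem173 and Cgas, and genes of the set given with log2 changes alone, were added for their place in the pathway after their values were seen. Replicate numbers follow deposit order and pair nothing.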

Additional observations from a re-analysis of the deposited data

Results flagged for a closer look

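1 library stood apart from its group. The mean log2(CPM + 0.5) of the 10 interferon-gamma genes was 4.365 in KO TAC replicate 1, against 4.806 to 4.871 in the other 3 KO TAC libraries, a gap of 0.872 of the group's range (above Dixon's 95% critical value for 4 libraries). Of 75 groups of 4 examined in this way, 1 met the criterion, and chance gives about 1 in 20. Without this library the median log2 change of the interferon-gamma genes after TAC in KO hearts was 0.35, with 9 of 10 above 0, and 11 genes of the set rose in KO hearts, with Ifit1 and Ifit3 added. The cause was not tested.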

How the results depend on the processing

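Among all genes, TAC in KO hearts changed 2033 genes, against 15 with 10-week libraries only, 588 with age as a covariate and 1005 on coding-part counts; TAC in WT hearts changed 1912, against 938, 1158 and 1169 under the same settings and 1074 when only the 2 groups compared were fitted. Of the type I genes, 7 passed in KO hearts, against 0 with 10-week libraries, 1 with age and 14 without a filter on low counts. In WT hearts 5 passed, against 3, 3 and 10 under the same settings, and 8 with DESeq2. The 10 include Ifi205, which was lower after TAC (7.60 and 9.11 CPM, against 11.5 to 15.0 CPM in WT sham libraries). Ifi205 was also called in WT hearts without KO sham replicate 3. Of the interferon-gamma genes, 2 passed in KO hearts, against 0 with 10-week libraries and with age, and 1 on coding-part counts and on library totals; the 1 passing in WT hearts was lost with age (0). KO against WT sham hearts differed at 139 genes, against 0 with 10-week libraries, 92 on coding-part counts, 387 without the filter and 525 with DESeq2, and both of the last 2 settings called 1 type I gene, Bst2. KO against WT after TAC differed at 232 genes, against 120, 145, 525 and 475 under those settings and 60 with only the 2 groups. The 1 type I call there, Ifi205, was lost (0) with 10-week libraries, age, coding-part counts, library totals and only the 2 groups. The interaction had 3 genes, against 0 with 10-week libraries, age, coding-part counts and library totals, 37 with DESeq2 and 66 without the filter. The causes were not tested.

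Leaving out 1 library at a time gave 797 to 2306 genes after TAC in KO hearts (type I 1 to 11, interferon-gamma 0 to 2), 512 to 2224 in WT hearts (2 to 9, 0 to 1), 8 to 531 between sham genotypes (0 to 1, 0 to 1), 46 to 359 between genotypes after TAC (0 to 1, 0 to 0) and 0 to 32 in the interaction (0 to 0, 0 to 0). Of the 23 alternatives, the KO call was held in 22 for Bst2, 19 for Ifi204 and Irf7, 17 for Rsad2 and Zbp1, 16 for Isg15 and Psmb8, 14 for Dtx3l and 12 for Irf1; the WT call was held in all 23 for Ifi204 and Mx1, 22 for Ifit3b, 20 for Ifi47, 19 for Ifit1 and 15 for Ifit2. None reversed its direction. On library totals alone, 45.3% of calls after TAC in WT hearts were higher, against 56.6% with TMM, and in sham hearts 30.8% (54.4% with upper-quartile scaling), against 64.7%. No paired analysis was possible because replicate numbers were given in accession order. With reads of 4 to 56 per library, Mx1 and Zbp1 are the least precise of the genes called.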
